A study of Mus musculus with 11 samples.

Results

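The immediate early response genes are switched on within minutes of a signal to the cell and need no new protein synthesis for it. The 10 described here were Fos, Fosb, Jun, Junb, Jund, Egr1, Egr2, Egr3, Ier2 and Nr4a1. They were chosen by name: all rows of a mouse lung transcript table with one of these gene symbols were summed by symbol, which gave 10 of 24515 genes. All 10 passed the filter on low counts, so that every member was among the 15175 genes tested.

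Levels were measured by RNA sequencing in 6 tumors and 5 samples of adjacent normal tissue from the lungs of 5 Gprc5a-/- mice. Gprc5a encodes an orphan receptor induced by retinoic acid in lung epithelium, and mice without it develop lung tumors. All of the mice, and therefore also the normal lungs, lacked Gprc5a and had been given NNK (nicotine-derived nitrosamine ketone, a carcinogen of tobacco smoke) into the peritoneum at 50 mg per kg body weight, 3 times a week for 8 weeks. The 3 ADC tumors came from mice m335, m372 and m378, the 3 ADN tumors from mice m335, m368 and m350, and the 5 normal lungs from mice m335, m368, m350, m372 and m378. ADC and ADN are the tags of the labels, which do not spell them out. Tissue was taken 4 months after NNK in mouse m335, 6 months in mouse m368 and 7 months in the others, so tag and time are not separate. Both tumors of mouse m335 share its normal lung. Only mouse m335 has both tags, so most of the comparison of ADC with ADN tumors runs through the normal lungs. Lungs of wild-type mice or of mice without NNK were not analysed here. The p-values of the main fits measure the spread, over these few animals, of the differences within a mouse.

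Fos, Fosb, Jun, Junb and Jund encode subunits of AP-1, a dimer of a Fos and a Jun protein, or of 2 Jun proteins, that binds DNA through leucine zippers. Egr1, Egr2 and Egr3 encode zinc finger factors that bind GC-rich sites, and their activity is held down by the corepressors Nab1 and Nab2. Nr4a1 is an orphan nuclear receptor and Ier2 a small nuclear protein. Growth factors acting through MAP kinases, and stress, induce many genes of this kind. Serum response factor at CArG boxes and CREB proteins at cAMP response elements are among the routes, and not every member uses them. The transcripts are short-lived. In lung, as in other tissues, they are also known to respond to the handling of a sample before its RNA is taken.

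Promoter windows of 300 bases, 250 before to 50 after the gene's start, came from RefSeq on GRCm38.p6, where 7 of the 10 members had a window that could be shown (Fos, Fosb, Jun, Junb, Jund, Egr2 and Nr4a1). Those of Jun, the member that passed the tests, of Junb, of Fos and of Egr2 are given. They show matches to elements of the immediate early response within these windows only. They are the windows chr4:95052173-95052472 for Jun (minus strand), chr8:84978699-84978998 for Junb (minus strand), chr12:85473640-85473939 for Fos (plus strand) and chr10:67537619-67537918 for Egr2 (plus strand). Capitals mark matches, on either strand, to the motifs named in the next paragraph.
Jun: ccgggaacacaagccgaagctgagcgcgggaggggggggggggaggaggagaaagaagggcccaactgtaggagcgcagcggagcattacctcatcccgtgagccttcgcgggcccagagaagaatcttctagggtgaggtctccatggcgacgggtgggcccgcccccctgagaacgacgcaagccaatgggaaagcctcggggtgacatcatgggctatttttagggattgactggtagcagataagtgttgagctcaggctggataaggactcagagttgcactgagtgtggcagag
Junb: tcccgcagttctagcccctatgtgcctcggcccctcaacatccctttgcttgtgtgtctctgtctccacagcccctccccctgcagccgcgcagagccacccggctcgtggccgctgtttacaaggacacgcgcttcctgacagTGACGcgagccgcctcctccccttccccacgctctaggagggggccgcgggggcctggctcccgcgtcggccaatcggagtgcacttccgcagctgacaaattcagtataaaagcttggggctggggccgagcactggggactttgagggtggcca
Fos: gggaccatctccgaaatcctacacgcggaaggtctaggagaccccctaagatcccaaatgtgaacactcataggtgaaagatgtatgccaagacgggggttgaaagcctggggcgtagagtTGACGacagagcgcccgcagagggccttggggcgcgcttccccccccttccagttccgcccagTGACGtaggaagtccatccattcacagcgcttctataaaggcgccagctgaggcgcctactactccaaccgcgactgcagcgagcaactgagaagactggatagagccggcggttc
Egr2: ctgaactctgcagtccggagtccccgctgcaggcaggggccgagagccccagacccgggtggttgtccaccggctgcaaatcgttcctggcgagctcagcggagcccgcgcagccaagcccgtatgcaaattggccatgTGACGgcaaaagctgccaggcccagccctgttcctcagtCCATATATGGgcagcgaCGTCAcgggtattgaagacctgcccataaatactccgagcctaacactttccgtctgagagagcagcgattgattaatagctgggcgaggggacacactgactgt

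The CArG box was found in 1 of the 7 windows, that of Egr2, where it begins 72 bases before the start; 1.63% of the 32851 windows of all genes hold it. The core of the cAMP response element, TGACG, lay 129 and 66 bases before the start of Fos, 106 before Junb, and 111 and 55 before Egr2. It was found in 5 of the 7 windows, with Fosb and Nr4a1 added, and in 20.8% of all windows. The whole element TGACGTCA (1.79% of all windows) and the AP-1 site TGANTCA (7.81%) had no match in the 7 windows. The EGR site GCGNGGGCG, held by 5.55% of all windows, was found in Fosb and Nr4a1. The window of Jun held no match to these letters, which says nothing of sites elsewhere or of a changed base.

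Mouse m372 had the largest and the smallest library, with 46987587 counts in its ADC tumor and 19938822 in its normal lung, and Gprc5a had at most 19 counts in any library. Levels are given as CPM (counts per 1000000 counts of the TMM-scaled library). Some libraries carried markers of neighboring tissues: 6 skeletal muscle genes together stood at 1.86 to 6.94 CPM in tumors and at 7.83 to 114 CPM in 4 normal lungs, but at 539 CPM in that of mouse m335. Thymocyte markers summed to at most 11.6 CPM in tumors and at most 47.6 CPM in 4 normal lungs, but to 396 CPM in that of mouse m372. Endothelial markers summed to 642 to 1067 CPM in tumors and 3059 to 5042 CPM in normal lungs. All 10 had a log2 fold change below 0 in tumors. Of these, 9 were called lower by the test described below, and none was at 0 in any library. Other marker sums were also lower in all tumors than in all normal lungs. Fibroblast markers stood at 761 to 1378 CPM in tumors and 1519 to 2346 CPM in normal lungs (4 of 8 called lower, none at 0 in any library). The log2 fold change was below 0 for 6 of them and above 0 for 2. Erythrocyte markers stood at 803 to 4271 CPM in tumors and 5011 to 22750 CPM in normal lungs (6 of 6 called lower). Adipocyte markers stood at 35.3 to 49.7 CPM in tumors and 82.6 to 667 CPM in normal lungs (2 of 6 called lower, with Adipoq at 0 in 4 tumors and 1 normal lung). All 6 had a log2 fold change below 0. Smooth muscle and pericyte markers stood at 257 to 500 CPM in tumors and 490 to 938 CPM in normal lungs, ranges that overlap. All 8 of them had a log2 fold change below 0, and 3 were called lower. The ADC tumor of mouse m335 stood apart from the other 5 tumors. Its alveolar type 2 markers, such as Sftpc, summed to 33239 CPM, against 98743 to 130450 CPM in the other tumors and 39736 to 54022 CPM in normal lungs. Its B cell markers summed to 465 CPM, against 48.1 to 119 CPM in the other tumors, and its T cell markers to 549 CPM, against 33.4 to 71.5 CPM. In bulk tissue, fewer cells of a type and less RNA per cell cannot be told apart.

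Tumors differed from normal lungs in 1 of the 10 members, and that member was Jun, which was lower. Across all genes 11.6% passed the threshold in this comparison, 3.68% higher and 7.91% lower, so the members' share was close to that of all genes. In ADC tumors against normal lungs 1 of 10 members, again Jun, was lower, where 4.99% of all genes were called (1.01% higher, 3.98% lower). In ADN tumors against normal lungs it was also Jun, 1 of 10, where 7.53% were called (2.68% higher, 4.84% lower). Both comparisons use the same normal lungs. In ADC against ADN tumors 0 members passed by edgeR, as did 0 of all 15175 genes (0%), and Egr1 had the 1 unadjusted p under 0.05 among the members, against 992 such genes in all. DESeq2 called 0 members there and 129 genes, and limma-voom 0 members and 0 genes. The median log2 fold change of the members in tumors against normal lungs was -0.17, and that of all genes tested was -0.03. Where no tool is named the calls are those of edgeR's quasi-likelihood test, in which each mouse is a block, with an adjusted p of at most 0.05 over all genes tested. Scaled to library totals instead, the median of all genes in tumors against normal lungs shifted to -0.22, and 359 genes were higher and 1714 lower, compared with 558 higher and 1201 lower with TMM.

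**Figure D1:**
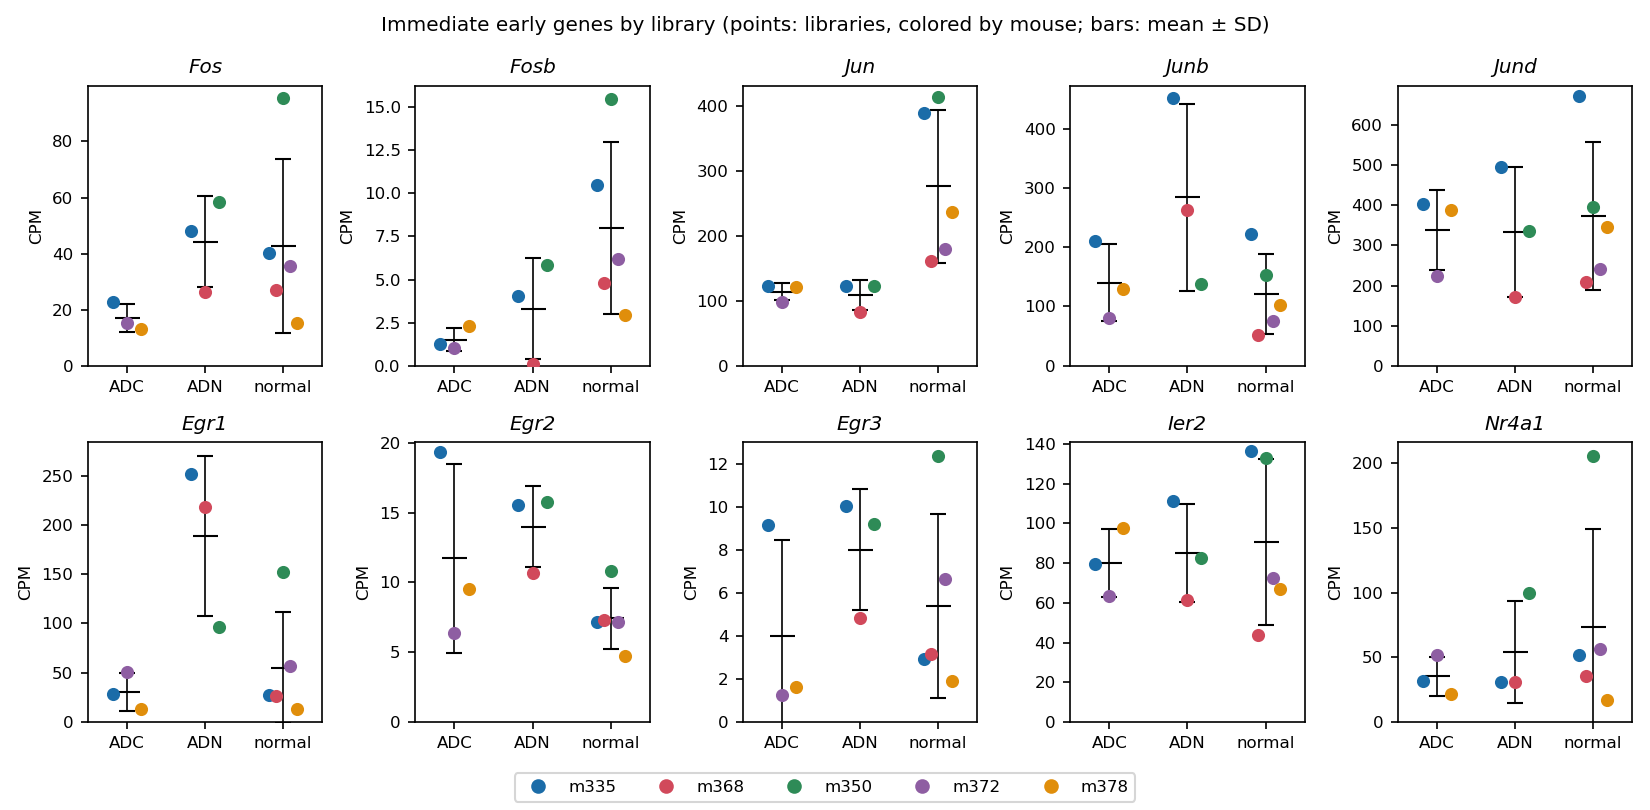
CPM of each gene (vertical axis, linear) in the 3 ADC, 3 ADN and 5 normal libraries, with points colored by mouse and lines for mean ± SD, cut off at 0. Jun in the 6 tumors lies between 82.7 and 123 CPM, under all 5 normal lungs, which range from 161 to 415 CPM.

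Among the Jun family, Jun itself (chromosome 4, 95049036 to 95052222 on mm10, 1 transcript on the minus strand) encodes c-Jun, the strongest activator of the family. Jun had 123, 98.9 and 121 CPM in the ADC tumors of mice m335, m372 and m378, and 123, 82.7 and 123 CPM in the ADN tumors of mice m335, m368 and m350. The normal lungs of mice m335, m368, m350, m372 and m378 had 389, 161, 415, 180.5 and 237 CPM. All tumors were under all normal lungs, in CPM ranges that do not overlap; 7.91% of all genes tested were lower in that way. The tumors were close to each other, with a mean of 112 ± 17.2 CPM (SD, n = 6), and the normal lungs had 276 ± 118 CPM (SD, n = 5). In tumors against normal lungs, Jun fell by 1.27 ± 0.19 on the log2 scale (SE; adjusted p = 0.00363, edgeR), a 2.42-fold lower level, and was lower in 6 of 6 tumors than in the normal lung of the same mouse. It fell by 1.16 ± 0.27 in ADC tumors (adjusted p = 0.0487, lower in 3 of 3) and by 1.39 ± 0.26 in ADN tumors (adjusted p = 0.0218, lower in 3 of 3). Between ADC and ADN tumors it differed by 0.23 ± 0.33 (adjusted p = 0.901). That difference ranged from 0.09 to 0.49 over the 16 fits that leave out a library or a mouse. The endothelial, fibroblast, erythrocyte and adipocyte markers were lower in the same 6 tumors, and their part in the fall of Jun was not tested.

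The fall of Jun in all tumors passed the threshold in all 25 alternatives tried, with adjusted p from 1.57e-08 to 0.0225. Without the normal lung of mouse m335, which carries the skeletal muscle markers, the adjusted p was 0.0225, and without that of mouse m372, with thymocyte markers, 0.0115. Without the ADC tumor of mouse m335 Jun fell by 1.20 in tumors (adjusted p = 0.00211), and its difference in ADC tumors, -0.90, did not pass (0.0960). The call in ADN tumors was lost without the ADN tumor of mouse m335 or all of that mouse (adjusted p = 0.173 and 0.0635), and without the normal lung, the ADN tumor or all of mouse m350 (0.115, 0.114 and 0.115). In ADC tumors Jun lay just inside the threshold and passed in 10 of 24 alternatives; the call was lost with no filter (0.0525) and in 13 of the 16 fits that leave out a library or a mouse. The 3 that kept it were those without the ADN tumor, the normal lung or all of mouse m368. With the mouse as a block, these are nearly the same fit. The same holds for mice m350, m372 and m378, so such fits are not separate checks. An antisense gene, Junos, overlaps Jun in the GENCODE annotation and is not analysed here. No source used here says whether counting was by strand, and reads of Junos could be among those of Jun.

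Junb, whose protein also pairs with Fos proteins and is a weaker activator than c-Jun, did not pass the test. Its levels were 210.0, 80.9 and 129 CPM in the ADC tumors of mice m335, m372 and m378, 452, 263 and 139 CPM in the ADN tumors of mice m335, m368 and m350, and 222, 52.0, 153, 75.2 and 102 CPM in the normal lungs of mice m335, m368, m350, m372 and m378. The ADN tumors of mice m335 and m368 stood highest, and all groups overlapped. The log2 fold change was 0.61 ± 0.37 in tumors against normal lungs (adjusted p = 0.341), 1.11 ± 0.42 in ADN against normal (adjusted p = 0.150) and 0.12 ± 0.40 in ADC against normal (adjusted p = 0.913), none of which passed in edgeR. DESeq2 called Junb higher in ADN tumors (adjusted p = 0.0268). By edgeR the ADN value was 0.57 without the normal lung of mouse m368 and 1.69 without the ADN tumor of mouse m350, and no fit that leaves out a library or a mouse passed (adjusted p from 0.0741 to 0.464). Without that normal lung the value in tumors was 0.24 (adjusted p = 0.636). Against the normal lung of the same mouse, Junb was higher in 4 of 6 tumors, by 2.34 on the log2 scale in the ADN tumor of mouse m368 and by 1.03 in that of mouse m335.

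Jund, the steadily expressed member of the family, held the highest level per kilobase of transcript of all 10 members, by the length used. It had 203 ± 59.8 CPM per kb in ADC tumors, 200.3 ± 97.4 in ADN tumors and 224 ± 110.5 in normal lungs (SD, n = 3, 3 and 5). That length, 1668 bases, is shorter than the stretch listed for its transcripts, 70697739 to 70700616 on chromosome 8. A longer length would lower the values per kilobase of Jund and could change its rank. Its CPM were 404, 224 and 388 in the ADC tumors of mice m335, m372 and m378, 495, 170.3 and 337 in the ADN tumors of mice m335, m368 and m350, and 673, 209, 397, 240.1 and 346 in the normal lungs of mice m335, m368, m350, m372 and m378. The libraries of mouse m335 were the highest within each group, and the groups overlapped. The fitted log2 difference between tumors and normal lungs was -0.24 ± 0.17 (adjusted p = 0.440, edgeR). Gm11175 lies antisense to Jund, with the same limit as for Jun.

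The make-up of the Jun family counts differed between libraries. Jun held 16.7% to 24.5% of the family's counts in ADC tumors, 11.5% to 20.5% in ADN tumors and 30.3% to 43.0% in normal lungs. Junb held 20.1% to 28.5% in ADC tumors, 23.2% to 51.0% in ADN tumors and 12.3% to 17.3% in normal lungs. For neither gene do the tumors overlap the normal lungs in this share. Both are parts of the same total and so are not separate results. How often shares in other gene families separate in this way was not computed. The ratio of Junb to Jun counts, chosen after the values were seen and therefore not tested, was 1.70, 0.818 and 1.07 in the ADC tumors of mice m335, m372 and m378, and 3.67, 3.18 and 1.13 in the ADN tumors of mice m335, m368 and m350. It was 0.571, 0.323, 0.368, 0.417 and 0.429 in the normal lungs of mice m335, m368, m350, m372 and m378. Every tumor was above its own normal lung, by 1.96 to 2.98 times among ADC tumors and 3.06 to 9.85 times among ADN tumors. A ratio within a library does not depend on how the libraries are scaled; it shows unequal change of the pair, and not which of them changed.

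**Figure D2:**
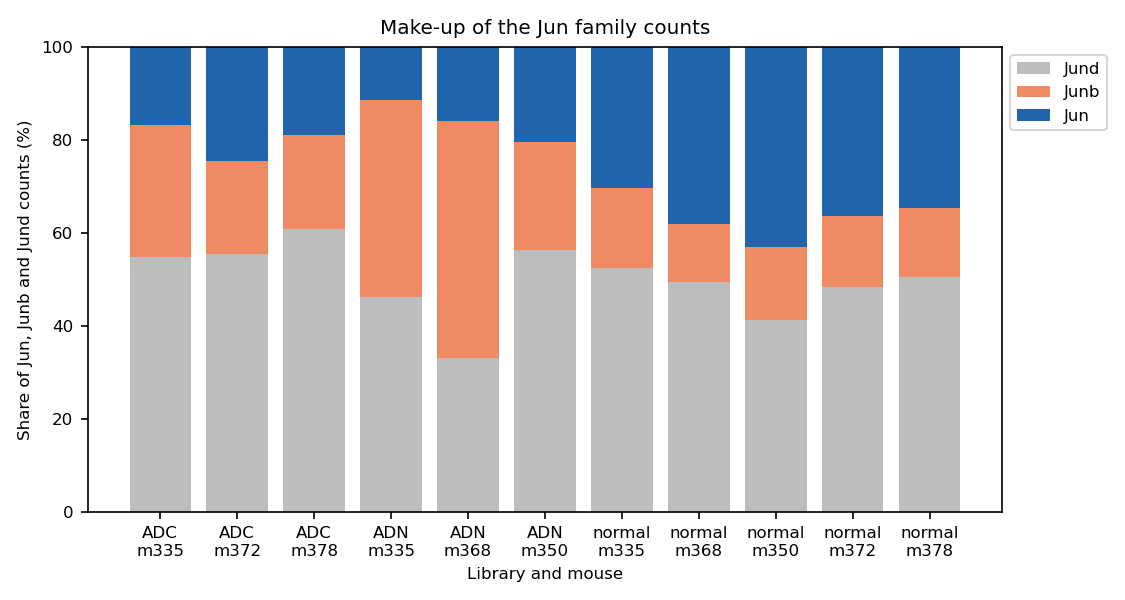
Share of the summed Jun, Junb and Jund counts (percent, vertical axis) held by each gene in the 6 tumor and 5 normal libraries, named by tag and mouse. Jun takes 11.5% to 24.5% in tumors and 30.3% to 43.0% in normal lungs.

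Fos, which encodes c-Fos and lies on chromosome 12 (85473901 to 85477270), was not called in any comparison. Its levels were 22.8, 15.3 and 13.0 CPM in the ADC tumors of mice m335, m372 and m378, and 48.0, 26.4 and 58.3 CPM in the ADN tumors of mice m335, m368 and m350. In normal lungs of mice m335, m368, m350, m372 and m378 it had 40.2, 26.8, 95.6, 35.5 and 15.1 CPM. The 3 ADC tumors were all under the 3 ADN tumors, as were 4.36% of all genes tested (5.57% were all above), and the normal lung of mouse m378, at 15.1 CPM, lay among the ADC tumors. The log2 fold change was -0.84 ± 0.28 in ADC against normal lungs (lower in 3 of 3 tumors, adjusted p = 0.158, edgeR), -0.12 ± 0.27 in ADN against normal lungs (adjusted p = 0.841) and -0.72 ± 0.34 in ADC against ADN tumors (adjusted p = 0.769), with -0.38 in the last of these without the ADN tumor of mouse m335.

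Fosb, a close relative of c-Fos, had the lowest level of the members per kilobase of transcript in tumors. In counts it had 37, 44 and 58 in the ADC tumors of mice m335, m372 and m378, and 120, 2 and 163 in the ADN tumors of mice m335, m368 and m350. The normal lungs of mice m335, m368, m350, m372 and m378 had 370, 155, 500, 137 and 104 counts. Every tumor had a lower CPM than the normal lung of its own mouse. The ADN tumor of mouse m368, with 2 counts, stood lowest, with a level 69.0 times lower than its normal lung (exact 95% interval 18.8 to 575, counting error only). In the ADC tumor of mouse m378 the level was 1.29 times lower, and that interval, 0.928 to 1.81, includes no difference.

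The fitted difference of Fosb was the largest of the 10 members, at -2.18 ± 0.69 in tumors against normal lungs, but with an adjusted p of 0.0787 in edgeR it did not pass. It was -2.26 ± 0.99 in ADC against normal lungs (adjusted p = 0.273) and -2.09 ± 0.93 in ADN against normal lungs (adjusted p = 0.218). DESeq2 called it lower in all 3 of these comparisons (adjusted p = 0.00310, 0.0362 and 0.0432) and limma-voom in the first (0.0330). By edgeR the ADC value ranged from -3.16 without the normal lung of mouse m378 to -1.47 without the ADC tumor of mouse m335, and the ADN value from -3.24 without the ADN tumor of mouse m335 to -1.17 without that of mouse m368. In none of the fits that leave out a library or a mouse did Fosb pass (adjusted p from 0.131 to 0.531 in ADC and from 0.136 to 0.375 in ADN). Of the counts of the Fos family (Fos, Fosb, Fosl1 and Fosl2), the share of Fosl2, which encodes Fra-2, was 77.5% to 83.2% in ADC tumors, 53.7% to 65.3% in ADN tumors and 40.9% to 77.6% in normal lungs. Fosl2 itself averaged 77.3 ± 8.04 CPM in ADC tumors, 73.4 ± 23.0 CPM in ADN tumors and 66.8 ± 11.2 CPM in normal lungs (SD, n = 3, 3 and 5). Fosl1, which encodes Fra-1, was below the filter.

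Egr1 encodes the best known of the EGR factors and differed most of the Egr genes, in CPM, between libraries. It had 28.1, 50.5 and 12.8 CPM in the ADC tumors of mice m335, m372 and m378, 252, 218 and 96.8 CPM in the ADN tumors of mice m335, m368 and m350, and 27.8, 26.3, 152, 56.7 and 12.8 CPM in the normal lungs of mice m335, m368, m350, m372 and m378. The ADN tumors were all above the ADC tumors, as are, in that direction, 4.36% of all genes tested. In mice m335 and m368 the ADN tumor had 9.08 and 8.29 times the level of its normal lung, whereas the ADN tumor of mouse m350 had 0.636 times the level of its own, the normal lung highest in Egr1. Each ADC tumor was within 1.12-fold of its normal lung.

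The log2 fold change of Egr1 was 2.13 ± 0.69 in ADN against normal lungs (higher in 2 of 3 tumors, adjusted p = 0.105, edgeR), and -0.29 ± 0.65 in ADC against normal lungs (adjusted p = 0.864). In ADC against ADN tumors it was -2.42 ± 0.83, with an unadjusted p of 0.0194 and an adjusted p of 0.744. Without the ADN tumor of mouse m335 the ADN difference was 1.20 (adjusted p = 0.601), and without mouse m350 it was 3.10 (adjusted p = 0.0160). DESeq2 called it on all libraries (2.18, adjusted p = 0.00157). The ADC to ADN difference was -1.25 without the ADN tumor of mouse m335 and -3.17 without that of mouse m350, and no fit that leaves out a library or a mouse passed (adjusted p from 0.253 to 0.999). Mouse m335 had a tumor of each tag, and there Egr1 stood at 28.1 CPM (ADC), 252 CPM (ADN) and 27.8 CPM (normal lung). The alveolar type 2 markers of these libraries summed to 33239 CPM (ADC), 130450 CPM (ADN) and 54022 CPM (normal lung). In the ADC tumors of mice m372 and m378, with Egr1 at 50.5 and 12.8 CPM, they summed to 116660 and 98743 CPM. In the ADN tumors of mice m368 and m350 they summed to 116110 and 102110 CPM. The part of these markers in the difference was not tested.

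Egr2, on chromosome 10 (67537869 to 67542188), had 19.3, 6.34 and 9.51 CPM in the ADC tumors of mice m335, m372 and m378, 15.6, 10.7 and 15.7 CPM in the ADN tumors of mice m335, m368 and m350, and 7.17, 7.27, 10.8, 7.13 and 4.72 CPM in the normal lungs of mice m335, m368, m350, m372 and m378. It stood above its level in the matching normal lung in 5 of 6 tumors, the ADC tumor of mouse m372 being the other. The log2 fold change of 0.68 ± 0.26 in tumors against normal lungs did not pass (adjusted p = 0.133, edgeR). Egr3, with 3 listed transcripts that were summed, ranged from 1.25 to 9.16 CPM in ADC tumors, 4.82 to 10.04 CPM in ADN tumors and 1.90 to 12.4 CPM in normal lungs. Relative to the own normal lung it was higher in 3 tumors and lower in 3, and its log2 fold change was -0.06 ± 0.56 (adjusted p = 0.956).

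Nab2, which encodes a corepressor of EGR proteins and is known to be an EGR target, was called among the 14 AP-1 partners and EGR corepressors in ADN against normal lungs; it is named after its values were seen. Its levels were 34.8, 113 and 46.2 CPM in the ADC tumors of mice m335, m372 and m378, 379.5, 267 and 133 CPM in the ADN tumors of mice m335, m368 and m350, and 70.0, 35.5, 45.2, 52.3 and 39.1 CPM in the normal lungs of mice m335, m368, m350, m372 and m378. All 3 ADN tumors were above all other libraries, the nearest being the ADC tumor of mouse m372. Of all genes tested, 4.36% had all ADN tumors above all ADC tumors. The share with all ADN tumors above all normal lungs as well was not computed. Nab2 rose by 2.51 ± 0.42 in ADN tumors (adjusted p = 0.0142, edgeR) and had a log2 fold change of 0.06 ± 0.45 in ADC against normal lungs (adjusted p = 0.965). The ADC to ADN difference, -2.45 ± 0.57, did not pass (adjusted p = 0.706). Without the ADN tumor of mouse m335 the call was lost (adjusted p = 0.163), as it was without the ADN tumor, the normal lung or all of mouse m368 (0.0690, 0.0691 and 0.0694).

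**Figure D3:**
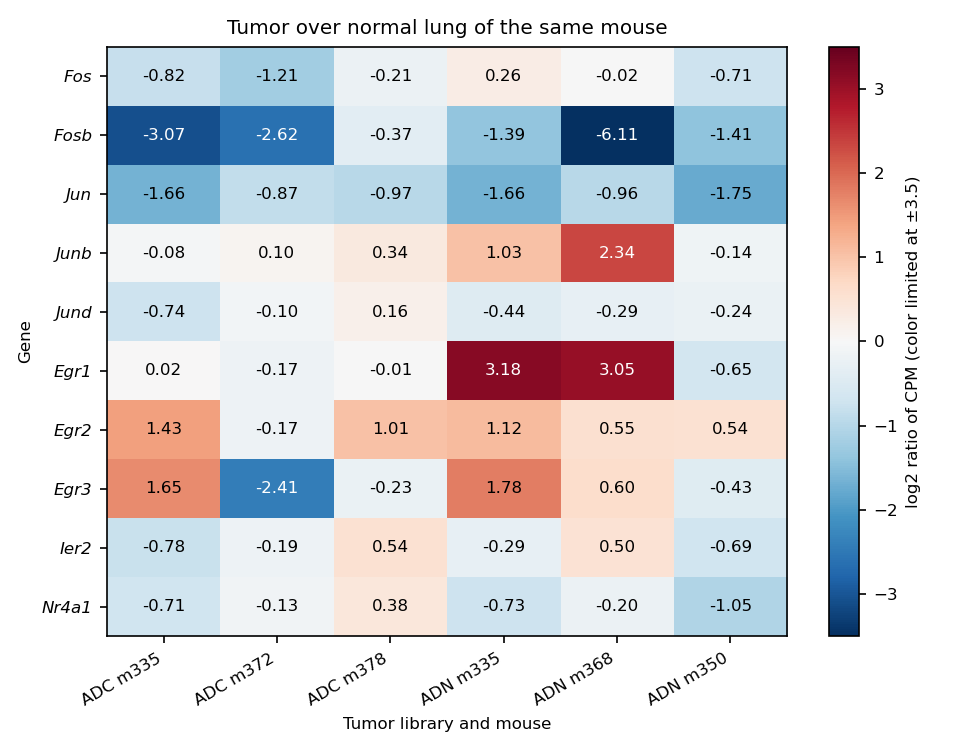
Log2 ratio of the CPM of each tumor to that of the normal lung of the same mouse (color, limited at ±3.5) for the 10 genes (rows) in 3 ADC and 3 ADN tumors (columns). Jun and Fosb are below 0 in all 6 tumors, and Egr1 stands at 3.18 and 3.05 in the ADN tumors of mice m335 and m368.

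Nr4a1, on chromosome 15 (101266846 to 101274794), had 31.7, 51.9 and 21.95 CPM in the ADC tumors of mice m335, m372 and m378, 31.3, 31.2 and 99.8 CPM in the ADN tumors of mice m335, m368 and m350, and 51.8, 35.9, 206, 56.7 and 16.8 CPM in the normal lungs of mice m335, m368, m350, m372 and m378. Both libraries of mouse m350 were the highest of their groups. The log2 fold change was -0.37 ± 0.21 in tumors against normal lungs, with lower values in 5 of 6 tumors (adjusted p = 0.306, edgeR). Ier2 on chromosome 8 (84661331 to 84662852) was among the most even members, at 80.2 ± 17.1 CPM in ADC tumors, 85.1 ± 24.9 CPM in ADN tumors and 90.5 ± 41.8 CPM in normal lungs (SD, n = 3, 3 and 5). It had a log2 fold change of -0.11 ± 0.23 in tumors against normal lungs (adjusted p = 0.822) and was lower in 4 of 6 tumors.

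**Figure D4:**
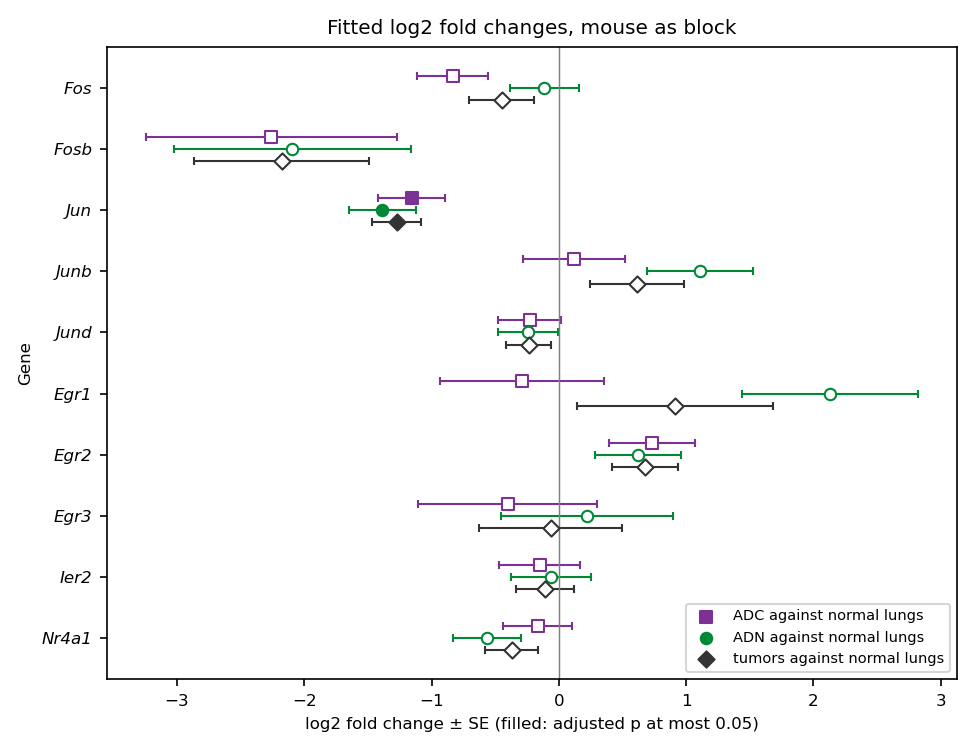
Fitted log2 fold change ± SE (horizontal axis) of each gene against normal lungs in ADC tumors, ADN tumors and all tumors, from edgeR with the mouse as a block. Filled symbols mark an adjusted p of at most 0.05, and the 3 filled symbols are those of Jun.

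Per kilobase of transcript, the order of the mean levels in ADC tumors was Jund, Junb, Ier2, Jun, Nr4a1, Egr1, Fos, Egr2, Egr3 and Fosb. In ADN tumors it was Jund, Junb, Egr1, Ier2, Jun, Nr4a1, Fos, Egr2, Egr3 and Fosb, and in normal lungs Jund, Jun, Junb, Ier2, Nr4a1, Fos, Egr1, Egr2, Fosb and Egr3. Jun had 35.8 ± 4.21 CPM per kb in ADC tumors, 34.4 ± 7.29 in ADN tumors and 86.7 ± 37.0 in normal lungs (SD, n = 3, 3 and 5), where it stood next to Jund. Egr1 had 10.03 ± 6.26 CPM per kb in ADC tumors, 62.2 ± 26.9 in ADN tumors and 18.2 ± 18.6 in normal lungs. Neighbors whose ranges do not overlap were, in ADC tumors, Jund over Junb, Ier2 over Jun and Jun over Nr4a1. In ADN tumors they were Ier2 over Jun, Fos over Egr2 and Egr2 over Egr3, and in normal lungs Egr1 over Egr2. The ranges of all other neighbors overlap. The place of Jund in these orders, and its distance from Junb, depend on the length used for it.

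The members varied widely between animals. In normal lungs the median coefficient of variation of the 10 was 59.5%, against 21.3% over all genes tested, and in tumors 61.5% against 35.2%. The normal lung of mouse m350 was the highest normal lung for 7 of the 10 members and that of mouse m335 for the other 3, while that of mouse m378 was the lowest for 6 and that of mouse m368 for 4. Summed over the members, levels in ADC tumors were 929, 593 and 796 CPM in mice m335, m372 and m378, and in ADN tumors 1543, 869 and 967 CPM in mice m335, m368 and m350. Normal lungs of mice m335, m368, m350, m372 and m378 had 1560.4, 569.9, 1589.8, 737 and 806 CPM. These sums are mainly Jund, Jun and Junb. The tumor of mouse m350 was below its normal lung for 9 of 10 members, the ADC tumor of mouse m372 for 9, the ADC tumor of mouse m335 for 7, and each of the other 3 tumors for 5.

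Across the 11 libraries, which come from 5 mice and are not independent, 37 of the 45 pairs of members had a positive Pearson r of log2 CPM, with a median of 0.46. Jund and Ier2 had the highest (r = 0.84, rho = 0.88), and Jun and Egr2 the lowest (r = -0.33, rho = -0.18). Within groups, however, Jun and Egr2 had a positive r, 0.45 in normal lungs and 0.57 in tumors. Among the 5 genes most like the mean of the members, out of all other genes tested, were 6820431F20Rik (r = 0.86), Btg2, an antiproliferative gene that is itself an immediate early gene (0.85), Ccdc134 (0.85) and Stx16, a syntaxin (0.84). Most like Fos alone were Tpsab1, a mast cell tryptase (r = 0.88), Gm9079 (0.84), 6820431F20Rik (0.81), Cyr61, a matrix protein gene of the immediate early response (0.81), and Btg2 (0.79). Without the 2 libraries farthest from the median of Fos, r was 0.90 for Tpsab1 and 0.84 for Gm9079, but 0.56 for Cyr61, 0.55 for 6820431F20Rik and 0.60 for Btg2. These are descriptions chosen from all genes for a high r.

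Of 20 other immediate early transcription factors 17 passed the filter, of which 1 was higher and 3 were lower in tumors than in normal lungs, and the list's median log2 fold change was -0.52 beside -0.03 for all genes, of which 3.68% were higher and 7.91% lower. Klf2, a flow-induced factor of endothelium, fell by 2.20 ± 0.21 (adjusted p = 0.000821, edgeR), to between 26.7 and 118 CPM in tumors, against 136 to 426 CPM in normal lungs. Csrnp1, a nuclear protein induced by AXIN1 in human cells, fell by 1.11 ± 0.17 (adjusted p = 0.00371), and Klf4, a factor of epithelial and endothelial cells, by 2.01 ± 0.48 (adjusted p = 0.0290). Bhlhe40, a repressor of the circadian system, rose by 0.86 ± 0.20 (adjusted p = 0.0271). Klf2 kept its call in all 25 alternatives and Csrnp1 in 24; Klf4 and Bhlhe40 lost theirs in 12 each, with adjusted p up to 0.113 and 0.105. The endothelial markers are lower in the same tumors as Klf2, and their part was not tested. In ADN against normal lungs 3 of the 17 were called, all lower, as were 4.84% of all genes: Klf2, Csrnp1 and, named after its values were seen, Atf3, a stress-induced factor. Atf3 fell by 1.29 ± 0.25 (adjusted p = 0.0234, edgeR) and lost its call in 9 of 24 alternatives, with adjusted p up to 0.223.

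Of 32 immediate early genes that do not encode transcription factors, 1 was higher and 4 were lower in tumors (3.68% and 7.91% of all genes), with a median of -0.34. Rhob, a small GTPase of endosomes, fell by 1.22 ± 0.19 (adjusted p = 0.00424, edgeR), and Ier3, a regulator of cell survival, by 1.34 ± 0.26 (adjusted p = 0.0123). Gadd45b, a stress sensor, fell by 1.27 ± 0.29 (adjusted p = 0.0235), and Dusp1, the phosphatase that switches off MAP kinases, by 1.14 ± 0.26 (adjusted p = 0.0256). Trib1, a pseudokinase, rose by 1.12 ± 0.25 (adjusted p = 0.0212). Rhob was called in all 25 alternatives, while the calls were lost in 6 for Ier3, 7 for Trib1 and 13 each for Dusp1 and Gadd45b (adjusted p up to 0.0574, 0.0723, 0.169 and 0.0987), nearly all of them fits without a library or mouse. In ADN against normal lungs, 3 of these genes were higher and 4 lower, where 2.68% and 4.84% of all genes were. The lower ones were Gadd45b, Rhob, Dusp1 and Pim1, and the higher ones Trib1, Dusp5 and Hbegf. Of those named after their values were seen, Pim1, a serine/threonine kinase, fell by 1.17 ± 0.27 (adjusted p = 0.0414, edgeR; lost in 16 of 24 alternatives, up to 0.237). Dusp5, a phosphatase of ERK, rose by 2.24 ± 0.51 (adjusted p = 0.0373), and Hbegf, a ligand of the epidermal growth factor receptor, by 1.62 ± 0.38 (adjusted p = 0.0403).

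Dusp5 had 5.38, 5.28 and 8.57 CPM in the ADC tumors of mice m335, m372 and m378, and 34.5, 25.5 and 10.8 CPM in the ADN tumors of mice m335, m368 and m350, against 3.30 to 7.30 CPM in normal lungs. As with Egr1, the ADN tumors of mice m335 and m368 were the highest. Its call and that of Hbegf were each lost in 12 of 24 alternatives, with adjusted p up to 0.323 and 0.313. Neither passed in ADC against ADN tumors (adjusted p = 0.744 and 0.706).

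Among 20 factors upstream of immediate early promoters, which include Srf, the Elk factors, Creb1 and MAP kinases, 1 was called in tumors against normal lungs. Of all genes tested 11.6% were called there. Rps6ka3, which encodes the kinase RSK2, rose by 0.97 ± 0.19 (adjusted p = 0.0124, edgeR; lost in 7 of 25 alternatives, up to 0.0662). Of the 14 AP-1 partners and EGR corepressors, 0 were called in tumors against normal lungs by edgeR. By that test 5 of them had an unadjusted p under 0.05, as did 4002 of all 15175 genes. DESeq2 called 2 of the 14, Nab1 and Nab2, and 3286 genes in all, and limma-voom called 0 of the 14. In ADN against normal lungs 2 of the 14 were called, as were 7.53% of all genes. Nab2 was higher and Nfatc1, a factor of calcium signaling, lower (-1.09 ± 0.24, adjusted p = 0.0359, edgeR). Nfatc1 lost its call in 14 of 24 alternatives (up to 0.233).

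Heat shock genes, which rise with stress of cells or tissue, were described beside them. Of 12, Hsp90ab1 and Hspa8, steadily expressed chaperones, rose in tumors by 0.75 ± 0.19 (adjusted p = 0.0380, edgeR) and 0.70 ± 0.18 (adjusted p = 0.0421), and Hspb1, a small heat shock protein, fell by 1.07 ± 0.21 (adjusted p = 0.0137). The list's median was 0.48, beside -0.03 for all genes, of which 3.68% were higher and 7.91% lower. The first pair lost their calls in 17 of 25 alternatives each (adjusted p up to 0.139), and Hspb1 in 4 (up to 0.0622).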

How the data were processed

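Per the labels' protocols, poly-A RNA (integrity number 7 or above) was sequenced on an Ion Proton. STAR 2.4.1d, Bowtie2 2.1.0, Partek and the build mm10 are named per the submitters' processing notes; no source used here says which of them made the counts, or with which annotation or strand setting. The deposited values are the authors' expected counts, not normalized, for 36285 RefSeq transcripts in 11 libraries. They were summed by gene symbol to 24515 genes and rounded to whole numbers; 78.4% to 86.2% of sums per library were already whole within 0.01. A transcript's listed end lies 1 base past the RefSeq end, and that base was removed. Jund has 2 transcripts with identical values.

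Genes were kept with filterByExpr (15175 genes, 99.9% of counts), TMM-scaled and tested by the quasi-likelihood method of edgeR 4.0.16 (R 4.3.3, robust, two-sided), with a Benjamini-Hochberg threshold of 0.05 over all genes tested. The SE comes from the F statistic. One fit compared tumors with normal lungs and another had 3 groups. The mouse was a fixed block, since the labels tie each tumor to a mouse: the deviations of a tumor and its own normal lung correlated at -0.0444 to 0.254, and for 2 of 6 tumors no other normal lung correlated better. Fits were run on simulated counts without differences between mice, so that check does not cover the mouse block. Alternatives were no replicate block, other scalings and filters, DESeq2 1.42.0, limma-voom 3.58.1, leaving out each library or mouse, and the libraries at 7 months alone. With the mouse as a block, leaving out a tumor, its normal lung or the whole mouse gave nearly the same fit, except for mouse m335. Counts of alternatives therefore include near copies of the same fit. Ratios of counts have exact 95% intervals, which cover counting error only. Levels per kilobase use annotated transcript lengths. Correlations use log2 CPM with a prior count of 2.

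All 10 members were named. Of each other list, up to 6 genes per direction past the threshold in tumors against normal lungs were named by smallest adjusted p, and genes of like pattern were the 5 with the highest r, of which 1 is not reported here. The members and the gene lists were chosen with earlier results of these data known, and other genes of ADN tumors after their values were seen.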

Additional observations from a re-analysis of the deposited data

Results flagged for a closer look

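Of 20 sets of values examined, those of the 10 genes in tumors and in normal lungs, 1 held a library far from the others. Nr4a1 had 206 CPM in the normal lung of mouse m350, and the nearest normal lung had 56.7 CPM; that gap is 0.789 of the whole range of the 5 normal lungs, above the critical value of 0.71. Chance alone flags about 1 in 20 such sets. Without that library the log2 fold change of Nr4a1 in tumors against normal lungs was -0.22 ± 0.21 (SE; adjusted p = 0.604, edgeR), and it did not pass in any fit that leaves out a library or a mouse (adjusted p from 0.211 to 0.608).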

How the results depend on the processing

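Jun was the member called in tumors against normal lungs under all 25 alternatives. Without the replicate block the counts of members called were 1, 1, 1 and 0 (tumors, ADC and ADN against normal lungs, and ADC against ADN), each 1 being Jun, so the block changed no member's call. Counts that moved were 2, 2 and 4 by DESeq2 (tumors, ADC and ADN against normal lungs; Fosb was added in each, and Egr1 and Junb in ADN), 2 by limma-voom in tumors, and 0 with no filter in ADC tumors. Leaving out a library or mouse gave 1 in tumors, 0 to 1 in ADC tumors and 0 to 1 in ADN tumors; without mouse m350, or its ADN tumor or normal lung, the 1 called in ADN tumors was Egr1 and not Jun. A group left with fewer libraries is assumed to vary like the others.

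Signs turned for differences that passed neither with all libraries nor after turning. Without the replicate block the log2 fold change was 0.16 for Egr3 in tumors, 0.0528 for Fos in ADN tumors, and -0.26 for Egr2 and -0.62 for Nr4a1 in ADC against ADN. It was -0.0349 for Jund in ADC against ADN by both RLE size factors and DESeq2, -0.0699 for Junb in ADC tumors on library totals, 0.23 for Egr3 in tumors by limma-voom, and -0.25 for Egr1 in tumors at 7 months alone, against 0.91 with all libraries. Leaving out a library or mouse gave, in tumors, -0.58 to 0.46 for Egr3 and -0.25 to 0.0819 for Ier2. In ADC tumors it gave -1.32 to 0.42 for Egr3, -0.48 to 0.19 for Ier2, -0.42 to 0.0481 for Jund and -0.42 to 0.14 for Nr4a1. In ADN tumors it gave -0.24 to 0.71 for Egr3, -0.37 to 0.15 for Fos and -0.31 to 0.22 for Ier2. In ADC against ADN it gave -0.36 to 0.41 for Egr2, -0.91 to 1.60 for Fosb, -0.36 to 0.29 for Ier2 and -0.14 to 0.31 for Jund. The cause was not tested.

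Over all genes, 1759, 757, 1142 and 0 were called (tumors, ADC and ADN against normal lungs, ADC against ADN), compared with 3286, 1858, 2931 and 129 by DESeq2 and 2242, 1546, 1779 and 3 without the block. Leaving out a library or mouse gave 917 to 3377 in tumors, 65 to 1067 in ADC tumors, 0 to 1972 in ADN tumors and 0 to 2 in ADC against ADN. The lowest were without the normal lung of mouse m378 (917 and 65) and without the ADN tumor of mouse m335 (0), and the highest when the m335 ADC tumor was left out. Libraries at 7 months alone gave 3040 in tumors, and no filter gave 5 in ADC against ADN. Depth limits Fosb, with 2 to 163 counts in tumors.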
